A study of Mus musculus with 7 samples.

Results

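The chemokine ligand genes Cxcl2, Cxcl10, Ccl2, Ccl3, Ccl4, Ccl5, Ccl7 and Ccl9 were followed across 7 expression arrays of RAW264.7 cells, an established mouse line with macrophage features that arose from a virus-induced leukaemia. The 8 genes were chosen by name, with earlier results of these data known. Of these, 7 were found among the 9999 genes that were tested. Ccl7 was not analysed here. The probe set of highest mean signal stood for its gene, which left out 1 of the 2 probe sets of Ccl9, and signals are given as log2 of the deposited intensity.

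There were 3 arrays of wild-type cells, titled RAW WT, and 4 arrays of cells titled RAW GfI1-1, which the series describes as Gfi1 knockout cells. Both were sampled at T0 without treatment, from cultures in DMEM with serum and antibiotics. The labels do not say how Gfi1, a zinc finger repressor of transcription in blood cells, was edited, or whether the edited cells are 1 clone. They call the replicates biological but name no separate cultures, and p-values below therefore reflect no more than the array-to-array spread, which may be technical.

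Chemokines are small secreted proteins that draw leukocytes along a gradient, and macrophages are a main source of them. In macrophages Cxcl2, Ccl2, Ccl3, Ccl4 and Ccl7 are known as targets of NF-kappaB, the transcription factor that Toll-like receptors and inflammatory cytokines activate. Cxcl10 and Ccl5 respond to interferon and its regulatory factors, with NF-kappaB taking part. Ccl9 is made by macrophages without a stimulus and is read here as the constitutive member. These classes come from general knowledge of the genes and not from the arrays.

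The targeted gene did not mark the labels. Gfi1 had a log2 signal of 2.66, 2.85 and 2.98 in the wild-type arrays and of 4.93, 5.02, 3.97 and 3.97 in replicates 1 to 4 labelled knockout. It was higher by 1.65 (SE 0.30, limma adjusted p = 0.00447; 0.75 with 16 added to each intensity), at a wild-type level among the lowest 5% of genes. Where the probes lie relative to the edit is not given, so this checks neither the label nor the loss of the protein, and every direction below rests on the labels. The arrays labelled knockout formed 2 pairs: the spread (SD) over probe sets of the difference in log2 signal was 0.16 between replicates 1 and 2 and 0.14 between replicates 3 and 4, but 0.52 to 0.54 across the pairs. It was 0.13 to 0.19 among the wild-type arrays. Of the 10 macrophage markers 8 were measured. Of them 5, Adgre1, Csf1r, Cd68, Lyz2 and Spi1, were lower in the arrays labelled knockout, beside 21.6% of all genes. The other 3, Cd14, Fcgr1 and Itgam, were not called. Cd14 was at 12.17, 12.20, 11.60 and 11.58 in knockout replicates 1 to 4 against 11.55 to 11.68 in wild type. Itgam was at 7.42, 7.39, 6.62 and 6.69 against 7.07 to 7.28. None of the 8 was higher at an adjusted or an unadjusted limma p under 0.05. Their summed intensity was 26223 to 26904 in wild type and 19387 to 20610 in the arrays labelled knockout. Of other cell types, 1 marker each was measured of 10 for neutrophils, of 8 for dendritic cells, of 8 for T cells, and of 6 each for fibroblasts and erythroid cells, and of 6 for B cells 0. These 5 markers had low intensities, at most 72 in wild type and 63 in the arrays labelled knockout, beside array medians of 93.8 to 101. The part of these markers in the chemokine results was not tested.

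Promoters are shown for the 4 members with an entry in RefSeq's table (GRCm38.p6), because NF-kappaB and interferon factors act through short sites near the start of such genes. Each run holds the 250 bases before the gene start, 5′ to 3′ on the gene's own strand. Capitals mark matches on either strand to a broad kappaB motif (GGG and CC with any 5 bases between), to the interferon-stimulated response element, ISRE (a pair of GAAA runs with any 2 bases between), and to the AP-1 motif (TGANTCA).
Cxcl2 chr5:90903649-90903898, plus strand: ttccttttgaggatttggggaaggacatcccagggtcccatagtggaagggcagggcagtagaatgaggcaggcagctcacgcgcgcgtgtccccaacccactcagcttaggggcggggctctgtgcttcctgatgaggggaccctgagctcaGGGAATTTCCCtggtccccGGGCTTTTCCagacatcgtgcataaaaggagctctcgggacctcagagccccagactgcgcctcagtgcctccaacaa
Cxcl10 chr5:92348890-92349139, minus strand: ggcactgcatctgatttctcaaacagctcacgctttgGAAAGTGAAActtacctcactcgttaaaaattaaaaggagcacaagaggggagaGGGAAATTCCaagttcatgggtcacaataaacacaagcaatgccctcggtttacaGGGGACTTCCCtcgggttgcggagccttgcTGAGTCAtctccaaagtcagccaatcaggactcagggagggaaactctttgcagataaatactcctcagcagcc
Ccl3 chr11:83649379-83649628, minus strand: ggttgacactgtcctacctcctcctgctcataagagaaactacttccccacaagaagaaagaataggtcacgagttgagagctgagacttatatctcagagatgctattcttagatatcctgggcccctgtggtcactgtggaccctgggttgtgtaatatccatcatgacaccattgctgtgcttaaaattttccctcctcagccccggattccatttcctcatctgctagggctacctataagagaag
Ccl9 chr11:83578637-83578886, minus strand: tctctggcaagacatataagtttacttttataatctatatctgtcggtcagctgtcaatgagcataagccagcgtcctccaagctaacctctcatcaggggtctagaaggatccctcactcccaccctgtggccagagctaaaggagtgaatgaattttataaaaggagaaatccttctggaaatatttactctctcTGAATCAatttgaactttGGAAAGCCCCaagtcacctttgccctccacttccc

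The Cxcl2 run held 2 matches to a stricter kappaB motif (GGG, any 2 bases, then TTTCC), which lies within the broad one: GGGAATTTCC from base -97 to -88 and GGGCTTTTCC from base -78 to -69 before the start. Cxcl10 held no strict match, but broad matches at -159, -104 and -103, of which the last pair overlap. Of the 4 windows it alone held an ISRE match, GAAAGTGAAA from -213 to -204, and it had an AP-1 match, TGAGTCA, from -74 to -68. Ccl9, the constitutive member, also held 1 strict kappaB match (GGAAAGCCCC, read on the other strand, from -35 to -26) and 1 AP-1 match, while in the Ccl3 window none of these letters were found. The Gfi1 core searched for (AAATCAC) was in 0 of the 4 windows. Over all 32851 promoter windows of this length, 1.41% held the strict kappaB motif, 45.8% the broad one, 2.98% the ISRE, 6.75% the AP-1 motif and 2.75% the Gfi1 core. A match is a run of letters and not a shown binding site.

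**Figure D1:**
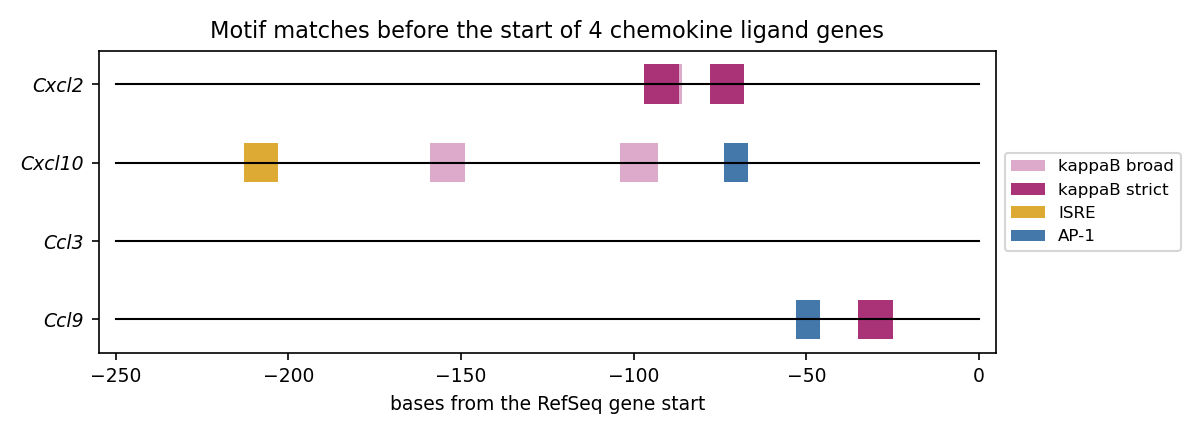
Position of motif matches in the 250 bases before the start of 4 chemokine ligand genes, in bases from the RefSeq gene start; dark bars are the strict kappaB motif, light bars the broad one. Cxcl2 has 2 strict kappaB matches close together, Cxcl10 the single ISRE, and Ccl3 no match.

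Of the 7 measured chemokine ligands, 4 were higher in the arrays labelled knockout at a limma adjusted p under 0.05 and 1 was lower. Over all 9999 genes 21.5% were called higher and 21.6% lower, 43.1% in all. In 5 of the 7 every array labelled knockout lay above every wild-type array, and in 1 every one lay below, where the shares over all genes were 26.5% and 27.9%, 54.5% in all. The median log2 difference of the 7 was 3.02, beside -0.0057 for all genes. The members and the lists below were chosen with earlier results of these data known. Their counts and medians beside those of all genes are therefore descriptions and not tests. With the wild-type arrays and each pair of similar knockout arrays treated as random blocks, an alternative added with these pairs known, 3 members passed, Cxcl2, Ccl3 and Ccl4, all higher. In that fit 4.48% of all genes were called higher and 4.56% lower, 9.04% in all. The wild-type arrays made up 1 block and the knockout arrays 2, so the spread between blocks of wild type could not be measured. A single correlation, 0.79, was used for every gene. Without knockout replicates 1 and 2, 5 members were called higher and 2 lower, where 27.7% and 29.3% of all genes were (57% in all). Without replicates 3 and 4, 6 were called higher and 1 lower, where 34.1% and 34.1% of all genes were (68.1% in all).

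**Figure D2:**
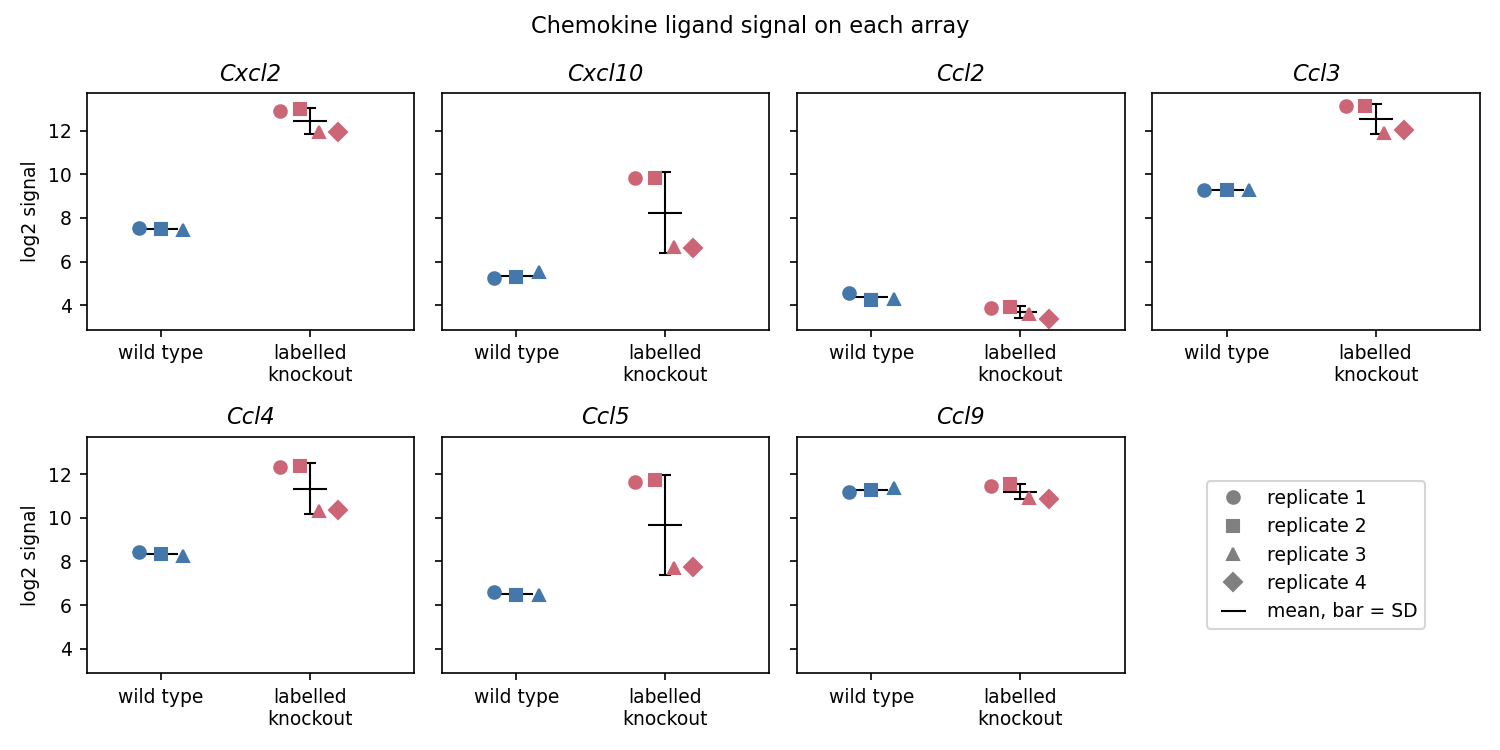
Log2 signal of each measured chemokine ligand on the 3 wild-type and 4 arrays labelled knockout; each symbol is 1 array, the line the group mean and the bar its SD. Only Ccl9 has overlapping groups, and Cxcl10 and Ccl5 show the widest gap between knockout replicates 1 and 2 and replicates 3 and 4.

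Among the NF-kappaB-driven members, Cxcl2, which calls neutrophils through the receptor Cxcr2, changed most. Its log2 signal was 7.56, 7.49 and 7.46 in wild type and 12.90, 12.996, 11.96 and 11.95 in knockout replicates 1 to 4. All 4 arrays labelled knockout were far above all 3 wild-type arrays, and replicates 3 and 4 were somewhat below the other two. The group means were 7.50 ± 0.05 (SD, n = 3) and 12.45 ± 0.58 (SD, n = 4). The gene rose by 4.95 (SE 0.29, limma adjusted p = 4.46e-05), which is 30.8-fold. In replicates 1 and 2 its signal lay within the top 1% of the array, which began at 12.31 and 12.29, and whether saturation compressed the difference was not tested. The difference was 4.45 without knockout replicates 1 and 2 and 5.44 without replicates 3 and 4. With the random blocks the adjusted p was 0.00016.

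Ccl3, also called MIP-1 alpha, is a ligand of Ccr1 that attracts monocytes and lymphocytes. Its signal was 9.29, 9.27 and 9.28 in wild type and 13.13, 13.13, 11.92 and 12.01 in the arrays labelled knockout. The wild-type arrays were nearly level, and the 2 knockout pairs stood apart from each other as well as from wild type. The gene rose 9.62-fold, by 3.27 on the log2 scale (SE 0.34, limma adjusted p = 0.000423, and 0.00205 with the random blocks). In replicates 1 and 2 the signal was close to the top of the scale, since the highest log2 value on any knockout array was 13.64 to 13.65, and whether saturation compressed those differences was not tested.

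Ccl4, or MIP-1 beta, attracts monocytes and T cells, and its gene lies next to Ccl3 on chromosome 11. Its signal was 8.42, 8.33 and 8.23 in wild type and 12.33, 12.38, 10.32 and 10.36 in knockout replicates 1 to 4. It was higher in every array labelled knockout, with replicates 1 and 2 about 2 log2 units above replicates 3 and 4 (a gap of 2.02). It rose 8.09-fold, by 3.02 (SE 0.58, limma adjusted p = 0.00567, and 0.0215 with the random blocks). Ccl3 and Ccl4 were close to each other in replicates 1 and 2, at 3.85 and 4.02 above wild type on average, and less so in replicates 3 and 4, at 2.68 and 2.01. Both read within the top 1% of the array in replicates 1 and 2, which began at 12.31 and 12.29. Whether saturation compressed those differences was not tested.

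Ccl2, also called MCP-1, the main monocyte attractant that acts through Ccr2, went the other way. Its signal was low throughout, at 4.54, 4.24 and 4.28 in wild type and 3.86, 3.93, 3.59 and 3.37 in the arrays labelled knockout. The groups did not overlap, but all 7 values were near the bottom of the range: the limit of the lowest 5% of genes was 3.51 in wild type and 3.49 in knockout. The gene fell by 0.67 (SE 0.15, limma adjusted p = 0.0112). This call ended with the random blocks (adjusted p = 0.214) and when tested against a fold of 1.2 (0.0785). With 16 added to each intensity before the log the difference was -0.33. It was -0.87 without knockout replicates 1 and 2 and -0.46 without replicates 3 and 4. Signal and background cannot be separated at this level.

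The interferon-driven members depended most on which arrays were read. Cxcl10, a ligand of Cxcr3 that draws activated T cells, had a signal of 5.24, 5.28 and 5.52 in wild type and of 9.84, 9.85, 6.67 and 6.61 in knockout replicates 1 to 4. Every array labelled knockout was above wild type, yet replicates 1 and 2 stood far above replicates 3 and 4. The gene was 22.6-fold above wild type in the first pair and 2.45-fold above it in the second. Over all 4 it rose by 2.89 (SE 0.92, limma adjusted p = 0.0387). The call did not hold with the random blocks (adjusted p = 0.104) or against a fold of 1.2 (0.0819). It also ended without wild-type replicate 1, 2 or 3 (0.107, 0.104 and 0.0952) and without knockout replicate 1 or 2 (0.0729 and 0.0727). Without both replicates 1 and 2 the difference was 1.29 (SE 0.09, adjusted p = 8.96e-05), and without both replicates 3 and 4 it was 4.50 (SE 0.09, adjusted p = 6.83e-07).

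Ccl5, or RANTES, which attracts T cells and monocytes, had the widest spread. Its signal was 6.61, 6.46 and 6.44 in wild type and 11.64, 11.73, 7.68 and 7.73 in the arrays labelled knockout. The groups did not overlap, and the gap between the pairs of knockout arrays, 3.97, was larger than the mean difference from wild type. That difference was 3.19 (SE 1.13, 95% interval 0.53 to 5.86), with a limma p of 0.0252 and an adjusted p of 0.0564, so it was not called. It was 36.2-fold in replicates 1 and 2 and 2.30-fold in replicates 3 and 4. Leaving out knockout replicate 3 or 4 brought it past the threshold (3.86 and 3.85, adjusted p = 0.0259 and 0.0284). So did leaving out either pair: the difference was 1.2 (SE 0.07) without replicates 1 and 2 and 5.18 (SE 0.07) without replicates 3 and 4.

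Ccl9, or MIP-1 gamma, a Ccr1 ligand of macrophages and osteoclasts, had a signal of 11.19, 11.30 and 11.36 in wild type. In the arrays labelled knockout it was 11.45, 11.55, 10.93 and 10.86. Replicates 1 and 2 lay just above all wild-type arrays and replicates 3 and 4 just below them, so the groups overlapped. The mean difference was -0.09 (SE 0.18, 95% interval -0.52 to 0.34, limma adjusted p = 0.727), and it was 0.0022 without knockout replicate 3 and 0.02 without replicate 4. Within the pairs it differed in sign: -0.39 (adjusted p = 0.00298) without replicates 1 and 2, and 0.21 (adjusted p = 0.0318) without replicates 3 and 4. The second probe set of Ccl9 stood at 10.61, 10.71 and 10.71 in wild type and at 10.67, 11.01, 10.04 and 10.00 in those labelled knockout, with the pairs in the same order.

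**Figure D3:**
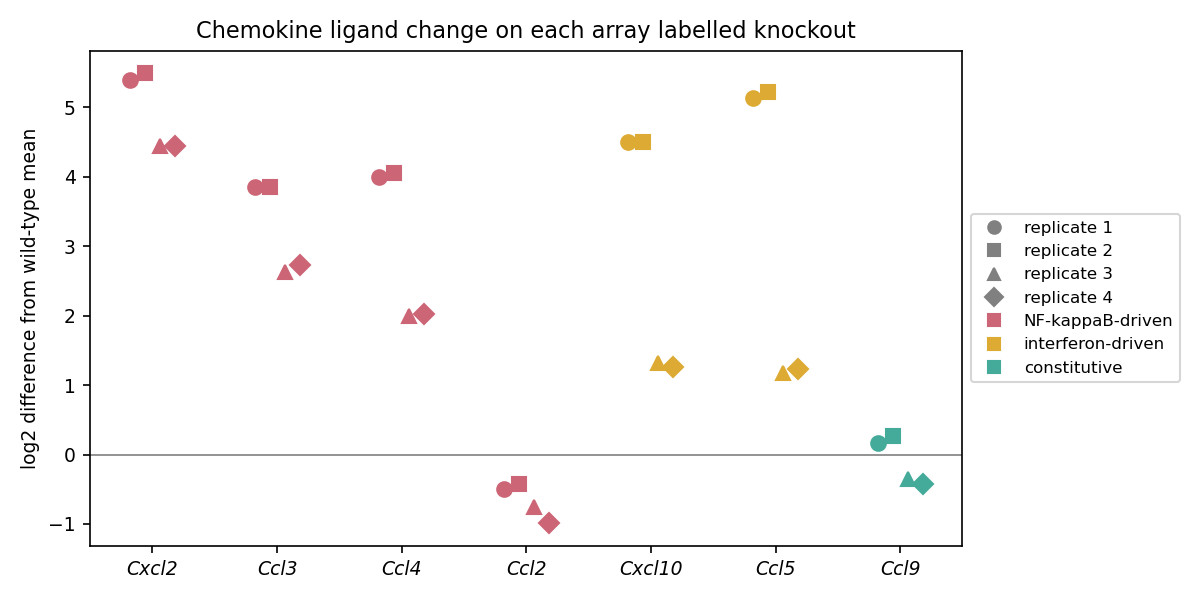
Log2 difference of each chemokine ligand from its wild-type mean on each of the 4 arrays labelled knockout; each symbol is 1 array and colours give the class. On replicates 3 and 4 Cxcl2, Ccl3 and Ccl4 stay at 1.99 or more, while Cxcl10 and Ccl5 lie between 1.18 and 1.32. Ccl2, also NF-kappaB-driven, lies below both at -0.76 and -0.99, so the classes overlap.

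The members of the classes were then set side by side within each array. In knockout replicates 3 and 4 Cxcl2 stood 4.45 and 4.44 above wild type, Ccl3 2.64 and 2.73, and Ccl4 1.99 and 2.03, while Cxcl10 stood at 1.32 and 1.26 and Ccl5 at 1.18 and 1.23. Ccl2, also of the NF-kappaB-driven class, was at -0.76 and -0.99, below both interferon-driven members, so the classes overlapped. In replicates 1 and 2 the interferon-driven members were at 4.50 (Cxcl10, in both) and at 5.13 and 5.22 (Ccl5), beyond Ccl3 and Ccl4 and below Cxcl2. There Cxcl2, Ccl3 and Ccl4 read within the top 1% of the array, while Cxcl10 and Ccl5 did not. Ccl3 began at 9.28 in wild type and the highest value on these arrays was 13.65, so it had little room to rise further. Whether saturation compressed this order and the medians that follow was not tested. The median of the 4 measured NF-kappaB-driven members was 3.92, 3.95, 2.31 and 2.38 in replicates 1 to 4, and that of the 2 interferon-driven members 4.81, 4.86, 1.25 and 1.24. The difference between the classes was not tested, because the pairs were seen in the data and the members were chosen with results of these data known.

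Ordered by mean log2 difference, Cxcl2 came first, followed by Ccl3, Ccl5, Ccl4 and Cxcl10, with Ccl9 and Ccl2 last. Cxcl2 exceeded Ccl3 by 1.68 ± 0.11 (SD, n = 4) and did so on all 4 arrays labelled knockout, though both read near the top of the scale in replicates 1 and 2. The next 4 had no order common to both pairs. Ccl3 minus Ccl5 was -1.28, -1.38, 1.46 and 1.51 in knockout replicates 1 to 4 (mean 0.08). Ccl5 minus Ccl4 was 1.14, 1.17, -0.81 and -0.80 (mean 0.17), and Ccl4 minus Cxcl10 -0.50, -0.45, 0.67 and 0.77 (mean 0.12). Ccl3 and Ccl4 read within the top 1% of the array in replicates 1 and 2. Cxcl10 exceeded Ccl9 by 2.98 ± 1.5 on all 4 arrays labelled knockout. The order of Ccl9 and Ccl2 was not measured, because of the low signal of Ccl2. The genes of Ccl5, Ccl9, Ccl6, Ccl3 and Ccl4 follow each other in this order along chromosome 11, so the differences of Ccl3, Ccl4 and Ccl5 and the small one of Ccl9 occurred within 1 gene cluster, while Cxcl2 and Cxcl10 are on chromosome 5.

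Of the 30 other chemokine ligands listed, 9 were measured, of which 1 was higher, 2 were lower and 6 were not called, with a median log2 difference of -0.05. Over all genes 21.5% were higher and 21.6% lower, and the counts in this list were close to or under those shares. The platelet chemokine gene Pf4 fell by 1.74 (SE 0.38, limma adjusted p = 0.00969), from 6.13 to 6.31 in wild type to 3.90, 3.79, 5.27 and 5.03 in knockout replicates 1 to 4, and by 1.09 without replicates 1 and 2. Ccl6, a close relative and neighbour of Ccl9 that macrophages also make without a stimulus, fell by 1.13 (SE 0.14, adjusted p = 0.000771, and 0.0687 with the random blocks). Unlike Ccl9, it was lower in each array labelled knockout, at 4.82, 4.62, 4.88 and 5.14 against 6.19, 5.86 and 5.95. Ccl22, a ligand for T helper and regulatory T cells, rose by 1.29 (SE 0.36, adjusted p = 0.0235), with 4.44, 4.36, 5.71 and 5.55 in knockout replicates 1 to 4. Its wild-type mean, 3.72, was near the lowest 5% of genes, and with 16 added to each intensity the difference was 0.76. It was 0.68 without knockout replicates 3 and 4. Its pairs were in the opposite order to those of the members, and its call ended without wild-type replicate 1, 2 or 3 (0.0779, 0.0681 and 0.0679) and with the random blocks (0.0884). Cxcl16, the ligand of highest mean signal in this list, had a difference of -0.13 (SE 0.11, adjusted p = 0.347).

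**Figure D4:**
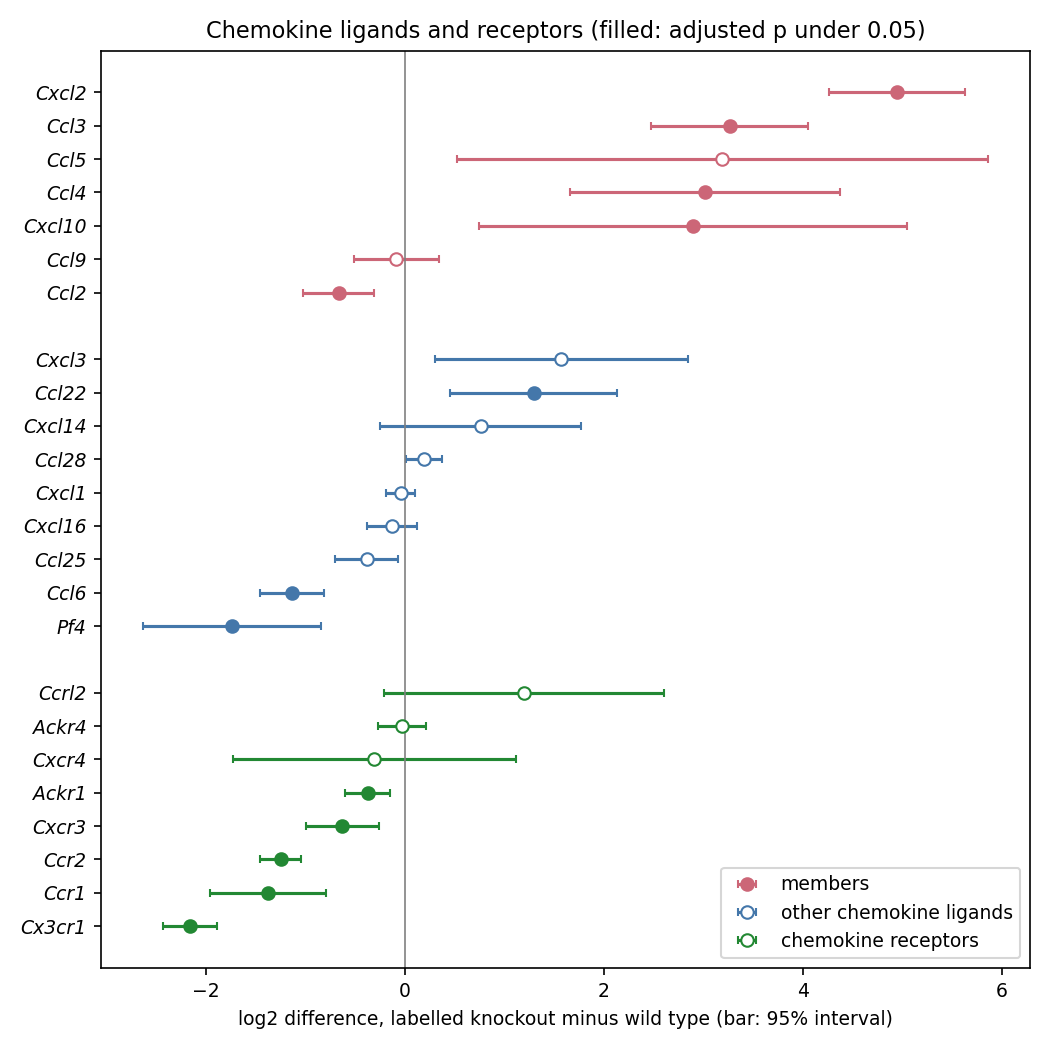
Log2 difference, labelled knockout minus wild type, with its 95% interval from the limma fit, for the chemokine ligands, the other measured ligands and the measured receptors; filled symbols passed an adjusted p of 0.05. The 5 differences above 2 are all in the top group, and the 5 called receptors lie below 0.

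Of 8 measured chemokine receptors, out of 23 listed, 5 were lower, 0 higher and 3 not called, with a median of -0.50, beside 21.6% of all genes lower. With the random blocks 2 receptors were lower, beside 4.56% of all genes. At an unadjusted p under 0.05 the count of higher receptors was also 0 in limma's test. Ccrl2 and Cxcr4, not called, were looked at after their values were seen. Ccrl2 was at 7.99, 7.97, 5.76 and 6.04 in knockout replicates 1 to 4 against 5.61 to 5.85 in wild type. Cxcr4 was at 5.07, 4.93, 2.89 and 2.91 against 4.12 to 4.42. Without knockout replicates 3 and 4, 2 receptors were higher and 6 lower, beside 34.1% and 34.1% of all genes. The fractalkine receptor gene Cx3cr1 fell by 2.16 (SE 0.12, limma adjusted p = 3.01e-05), from 10.09 to 10.20 in wild type to 7.79, 7.81, 8.14 and 8.17. Ccr2, the receptor of Ccl2 and Ccl7, fell by 1.25 (SE 0.09, adjusted p = 8.61e-05). Ccr1, which binds Ccl3, Ccl5 and Ccl9, fell by 1.38 (SE 0.25, adjusted p = 0.00426, and 0.0745 with the random blocks). Both means lay among the lowest 5% of genes in the arrays labelled knockout, so their sizes are uncertain: with 16 added to each intensity, the differences of Ccr2 and Ccr1 were -0.61 and -0.61. Cxcr3, the receptor of Cxcl10, fell by 0.63 (SE 0.16, adjusted p = 0.0153), and the atypical receptor gene Ackr1 by 0.38 (SE 0.10, adjusted p = 0.0181). With the random blocks neither passed (0.186 and 0.379). The Cxcr3 call also ended without wild-type replicate 1 or 2 (0.0562 and 0.0538), and the Ackr1 call without wild-type replicate 2 or 3 (0.0694 and 0.0738). The list had 3 lower receptors without wild-type replicate 2 and 1 higher without knockout replicate 3.

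Genes of the NF-kappaB and interferon pathways were read from lists of their own, and their part in the chemokine results was not tested. Of 17 measured NF-kappaB pathway genes 13 were higher, 0 lower and 4 not called (median 0.76, at an unadjusted limma p under 0.05 again 0 lower), beside 21.5% of all genes higher and 21.6% lower. With the random blocks 9 were higher, beside 4.48% of all genes. The median of all genes was -0.0057. By array labelled knockout, from replicate 1 to 4, the median was 0.91, 1.01, 0.66 and 0.65. Nfkbiz, an atypical inhibitor-family protein that acts with NF-kappaB in the nucleus, was at 10.42, 10.30, 9.99 and 9.89 against 5.59 to 5.87 in wild type. It was high in both pairs, with replicates 3 and 4 below the other pair. Its difference was 4.41 with the probe set used here and 2.94 with the mean of its probe sets. The subunit gene Rel, at 9.54, 9.49, 7.32 and 7.18 against 4.69 to 5.30, and the adaptor gene Traf1, at 8.76, 8.88, 6.44 and 6.47 against 4.59 to 4.99, rose with a gap between the pairs of about the size seen in Ccl4 (limma adjusted p = 0.00603 and 0.013). Without knockout replicates 1 and 2 the differences were 2.26 and 1.703. Over all arrays that of Traf1 was 2.88, and 2.44 with the mean of its probe sets. Tnip1 and the inhibitor-family genes Bcl3 and Nfkbia rose by 1.48 (SE 0.07), 1.39 (SE 0.13) and 0.72 (SE 0.05), each with all 4 arrays above wild type. With the random blocks Traf1 missed the threshold (adjusted p = 0.0503).

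Of 19 measured interferon pathway and target genes 4 were higher, 3 lower and 12 not called (median 0.93). In this fit these counts were near or below the shares over all genes, 21.5% higher and 21.6% lower. In 8 of the 19 every array labelled knockout lay above every wild-type array, and in 3 below, beside 26.5% and 27.9% of all genes. Without knockout replicates 1 and 2, 9 were higher and 6 lower, beside 27.7% and 29.3% of all genes. Without replicates 3 and 4, 13 were higher and 3 lower, beside 34.1% and 34.1%. Replicates 1 and 2 labelled knockout had medians of 1.5 and 1.60, against 0.07 and 0.19 in the other pair. Irf7, the regulatory factor that amplifies interferon responses, was at 9.72, 9.74, 8.31 and 8.32 against 7.01 to 7.13 in wild type, and rose by 1.97 (SE 0.41, limma adjusted p = 0.00768), or by 1.26 without knockout replicates 1 and 2. Irf9, Usp18 and the RNA sensor gene Ifih1 rose by 0.93 (SE 0.15), 1.65 (SE 0.47) and 1.35 (SE 0.44), and none of the 3 passed with the random blocks (adjusted p = 0.0703, 0.0826 and 0.117). Without knockout replicates 1 and 2, Usp18 was higher by 0.83 and Ifih1 by 0.57, and without replicates 3 and 4 Ifih1 was higher by 2.12. Some genes that were not called were looked at after their values were seen. Rsad2 was at 10.93, 10.95, 6.19 and 6.27 in knockout replicates 1 to 4 against 7.03 to 7.24 in wild type. Cmpk2 was at 7.13, 7.08, 4.58 and 4.52 against 6.08 to 6.14. Both changed sign between the pairs, while Ifit2 and Zbp1 were above wild type in each. Irf1, an activator of interferon targets, fell by 0.72 (SE 0.06), and the receptor gene Ifnar2 by 0.66 (SE 0.06), on every array labelled knockout. The count of higher genes was 2 without wild-type replicate 1, 2 or 3 or knockout replicate 1, and 7 without knockout replicate 3 or 4. The Usp18 call ended without any 1 of the first 4 of these arrays (0.0747, 0.0758, 0.0838 and 0.0513). The Ifih1 call ended without each of the same arrays (0.111, 0.111, 0.115 and 0.0825) and without knockout replicate 2 (0.083).

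Some chemokine messages are known to be short-lived, in part through AU-rich elements, and factors that affect the decay of messages were read as a further list. Of 10 measured, 4 were higher, 2 lower and 4 not called (median 0.04), beside 21.5% of all genes higher and 21.6% lower. The endonuclease genes Zc3h12c and Zc3h12a (Regnase-1) rose by 3.02 (SE 0.12) and 2.87 (SE 0.11), and differed little between the pairs, with Zc3h12a at 7.66, 7.74, 7.44 and 7.55 against 4.58 to 4.93 in wild type. With the mean of its probe sets the difference of Zc3h12a was 1.61. Zfp36 (tristetraprolin), which binds such elements and hastens decay, rose by 1.95 (SE 0.40), or by 1.25 without knockout replicates 1 and 2, and Zfp36l2 fell by 1.26 (SE 0.14). Elavl1, a stabilising protein, fell by 0.44 (SE 0.05, limma adjusted p = 0.000781, and 0.0846 with the random blocks). With the mean of its probe sets, its difference was 0.18. Hnrnpd, the member of highest mean, had a difference of 0.08 (SE 0.17).

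The genes most like each member over the 7 arrays were taken by Pearson r among 1318 genes with an SD of at least 0.5. The arrays fall into 3 sets, wild type and the 2 knockout pairs, so r mostly says in what proportion the pairs lay above wild type. Nearest to Cxcl2 were Ptgs2, Gch1 and Cth (r = 0.9998, 0.9996 and 0.9993). Nearest to Ccl3 were Stap1, Rilpl2 and Tafa2 (0.9994, 0.9992 and 0.9992), and nearest to Ccl4 Rab11fip1, Arih1 and Serpini1 (0.9997, 0.9997 and 0.9994). Cxcl10 was nearest to Ifi207, Ifih1 and Atf3 (0.9983, 0.9982 and 0.9977), and Ccl5 to Sqstm1, Fabp4 and Ifih1 (0.9993, 0.9991 and 0.9989). For Ccl2 the nearest were Fabp3, Akr1b10 and F9 (0.9822, 0.9763 and 0.9734), and for Ccl9 Cmpk2, Rgs1 and Mfap3l (0.9738, 0.9717 and 0.9697). On the interferon list were Ifih1, near Cxcl10 and Ccl5, and Cmpk2, near Ccl9.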

How the data were processed

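RNA was isolated with TRIzol and hybridised as biotinylated cRNA to Affymetrix arrays, per the labels' protocols. The authors deposited 1 intensity per probe set and array, 19431 probe sets in all. The submitters' processing notes name RMA and give no version of it. The intensities were on a linear scale, so log2 was taken here. RMA's between-array normalization hides array-wide shifts, and no detection calls were used. Arrays have no read depth, so their number limits the precision. GEO's platform annotation gave 1 symbol for 17335 probe sets, several for 532 and none for 1564. Only the first kind was used, with the probe set of highest mean per gene. The groups were compared with limma 3.58.1 in R 4.3.3 (5 residual and 2.2 prior degrees of freedom), two-sided, with Benjamini-Hochberg adjustment over 9999 genes and a threshold of 0.05. The method was tested on simulated data with independent noise on each array. Those data lacked the pairs of similar knockout arrays, so the test does not show how the calls behave with such pairs.

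The members, lists and rule for named genes were chosen with earlier results of these data known. The rule takes all members, the 5 largest called genes and the highest mean of each list, and the 3 genes most like each member. Alternatives changed the scaling, the filter, the probe set summary, the variance prior, array weights, the null fold, an added constant of 16, the replicate number as a block, and the arrays left out. Random blocks of similar arrays and leaving out either pair were added after seeing the data.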

Additional observations from a re-analysis of the deposited data

Results flagged for a closer look

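Of 54 genes checked for an array far from the others in the knockout group, 1 stood out. Elavl1 had log2 signals of 8.13, 8.12, 8.13 and 8.06 in knockout replicates 1 to 4, and the gap below the others for replicate 4 was 0.835 of the range. Chance alone gives about 1 such gene in 20 for independent arrays, but the knockout arrays formed pairs. The range itself was also small. None of the chemokine ligands stood out in this way.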

How the results depend on the processing

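Cxcl2, Ccl3 and Ccl4 kept their direction and side of the threshold in all 19 alternatives, with log2 differences of 4.45 to 5.44, 2.68 to 3.85 and 2.01 to 4.02. Leaving out 1 array at a time gave 4.76 to 5.11 for Cxcl2, 2.36 to 3.44 for Cxcl10, -0.75 to -0.56 for Ccl2, 3.07 to 3.48 for Ccl3, 2.67 to 3.36 for Ccl4, 2.51 to 3.86 for Ccl5 and -0.20 to 0.0245 for Ccl9. Cxcl10 (2.89) and Ccl2 (-0.67) lost their calls against a fold of 1.2 and with random blocks of similar arrays. Ccl5 passed with array weights (2.78), with the replicate block (3.85), and without either pair (1.2 and 5.18). Ccl9 turned to 0.0245 with the replicate block and to 0.21 without knockout replicates 3 and 4, and passed at -0.39 without replicates 1 and 2. The cause of these changes was not tested. The block fit in effect drops knockout replicate 4, which has no partner, and its values for Ccl5 and Ccl9 equal those without that array, so both choices changed together. The labels do not say whether replicate numbers pair the arrays. Deviations of same-numbered arrays correlated at 0.12, -0.09 and 0.11. The split between the pairs entered these values: wild-type replicate 1 correlated at 0.12 with both knockout replicates 1 and 2. They therefore cannot show or exclude a pairing by number.

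Over all genes, 853 higher and 893 lower genes were called against a fold of 1.2, 448 and 456 with random blocks, and 3406 and 3408 without knockout replicates 3 and 4; without single arrays the counts were 1379 to 2182 and 1500 to 2289, and the lowest counts of higher genes came without wild-type replicates 2 (1379) and 3 (1404). Chemokine ligands called lower numbered 0 with dim genes left out (Ccl2 was then not tested), against a fold of 1.2 and with random blocks, and 2 without knockout replicates 1 and 2. Without single arrays 3 to 5 were higher and 1 lower. Other ligands called higher numbered 2 after quantile normalization, with the trend and robust prior, with array weights, with the replicate block and without knockout replicates 1 and 2, then 0 with dim genes left out, against a fold of 1.2 and with random blocks, and 4 without replicates 3 and 4; those lower numbered 0 without dim genes and 1 with random blocks. Receptors called lower numbered 1 without dim genes, 3 against a fold of 1.2 and 2 with random blocks, and 2 were higher without knockout replicates 3 and 4. Interferon genes called higher numbered 8 with array weights and with the replicate block, 2 against a fold of 1.2 and 1 with random blocks. They numbered 9 and 13 without the first or second pair, where 27.7% and 34.1% of all genes were higher. Without replicates 1 and 2, 6 were lower, beside 29.3% of all genes. Without knockout replicates 3 and 4, 1 NF-kappaB gene was lower. Decay factors called lower numbered 1 with the mean of probe sets and with random blocks, and 5 without knockout replicates 3 and 4. Without single arrays the ranges were 0 to 2 higher and 2 to 3 lower for other ligands, 0 to 1 and 3 to 5 for receptors, 13 and 0 for NF-kappaB genes, 2 to 7 and 2 to 3 for interferon genes, and 4 and 2 to 3 for decay factors.

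Of 521 values for 28 other named genes, 480 kept direction and side, 32 lost and 2 gained a call, and 7 turned sign: Cxcl16 to 0.0051 without knockout replicates 3 and 4, Elavl1 to 0.18 and Hnrnpd to -0.24 with the mean of probe sets, Hnrnpd to -0.0057 with the replicate block and to -0.20 without replicates 3 and 4, and Hnrnpd to -0.0188 and -0.0057 without knockout replicate 3 or 4. Scaling moved the median of all genes from -0.0057 to 0.02 at most.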

Other observations

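Cxcl1 and Cxcl3, neutrophil chemokine genes of the Cxcl2 cluster on chromosome 5, were looked at after their values were seen. Cxcl1, the direct neighbour of Cxcl2, had log2 signals of 5.37, 5.39 and 5.32 in wild type and 5.27, 5.40, 5.30 and 5.28 in the arrays labelled knockout, a difference of -0.05 (SE 0.06, 95% interval -0.19 to 0.10, limma adjusted p = 0.572). Its single named probe set has the suffix x_at, which marks probes shared with other sequences, so this value may not be specific to Cxcl1. Its promoter window held 2 strict kappaB matches, as many as that of Cxcl2.

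Cxcl3 stood at 1.02, 1.04 and 0.91 in wild type and at 1.61, 1.67, 3.80 and 3.16 in knockout replicates 1 to 4, so here replicates 3 and 4 were the higher pair (difference 1.57, SE 0.54, limma adjusted p = 0.0512). Both means lie among the lowest 5% of genes, where level and background cannot be told apart.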
